A study of Bos taurus with 2 samples.

Results

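The miR-29 family was examined in small RNA sequencing libraries of bovine (Bos taurus) lung. Its members were the rows of the authors' table named miR-29a, miR-29b, miR-29c, miR-29d or miR-29e under any species, 13 rows of 2271. These 13 rows held 10 distinct sequences. There were 2 libraries, 1 of collapsed lungs and 1 of normal lungs, and each was a single RNA pool. Per the series text, a pool combined 500 ng from each of 4 neonatal animals, which were either cloned or normal cows. That the collapsed lungs were those of the clones follows from the series title and is not written on the sample itself. On that reading, cloning and lung collapse cannot be told apart in any difference below. No age in days, sex, breed or drug treatment is given for either pool. A pool hides the spread between cows, so nothing below has a replicate check and no test between the conditions was made. The family was chosen with its levels in these libraries known, and its values are given as a description.

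MicroRNAs guide a silencing complex to mRNAs, mainly through the seed, bases 2 to 8 of the mature strand. miR-29 is known for repressing mRNAs of the extracellular matrix, among them fibrillar collagens, elastin and fibrillin, and mRNAs of the DNA methyltransferases DNMT3A and DNMT3B. In lung fibroblasts TGF-beta lowers miR-29, and in mice its level rises as the lung matures after birth. The 3p arm is known as the guide strand of miR-29a, miR-29b and miR-29c, and the 5p arm as the partner strand. No mRNA or protein of a target was measured here.

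The sequences are shown first because they decide which rows can be told apart. Those of the 3p arm are printed 5′ to 3′ as deposited (T for U), with bases 2 to 8 in capitals:
miR-29a: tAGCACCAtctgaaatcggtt
miR-29b: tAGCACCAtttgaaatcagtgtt
miR-29c: tAGCACCAtttgaaatcggtt
miR-29d-3p: tAGCACCAtctgaaatcga
oan-miR-29a-3p: tAGCACCAtttgaaatcggttaaa
miR-29e: cATTTGAAatcagtgtt

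Of these 6 sequences, 5 share the seed AGCACCA, and they stood on 6 rows, all of the table's rows with that seed at bases 2 to 8. Outside the family, the same letters stood in 1 predicted miRNA of 18 nt, from its base 1, with 0 reads in the collapsed-lung and 2 in the normal-lung library. Counted from 1 at the 5′ end, miR-29a and miR-29c differed over 21 bases by C10T alone (miR-29a base first). miR-29c and miR-29b differed over the same 21 bases by G18A and T21G (miR-29c base first). miR-29d-3p, a 19 nt sequence, differed from miR-29a by G19A only, and the suffix of its deposited name is read here as a T-to-C change from the database entry. The row named for platypus, oan-miR-29a-3p, held the 21 bases of miR-29c followed by 3 more A bases.

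The last 6 bases of miR-29b, AGTGTT, are known in human cells as an element that brings this member into the nucleus. That ending is printed in capitals in these lines:
miR-29b: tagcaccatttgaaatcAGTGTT
miR-29e: catttgaaatcAGTGTT

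Only 4 of the 2271 rows, 0.176%, ended in these letters, and 3 of the 4 were members: both rows of miR-29b and the row of miR-29e. The 17 nt miR-29e sequence was the end of miR-29b from its base 7 on and lacked the seed, so its reads could not be assigned to miR-29e rather than miR-29b.

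The 5p arm had 4 sequences that all differ at bases 2 to 8, which are in capitals:
miR-29d-5p: tGACCGATttctcctggtgttct
mdo-miR-29b-2-5p and mir-29e-p5: cTGGTTTCacatggtggcttaga
mmu-miR-29a-5p: tGATTTCTtttggtgttcaga
mmu-miR-29b-1-5p: gCTGGTTTcatatggtggtttaga

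The prefixes mmu and mdo stand for mouse and opossum, and the second sequence stood under an opossum and a bovine name. In the RefSeq annotation of the ARS-UCD2.0 assembly, which is not the build of the table, the 6 bovine miR-29 genes stood in 3 neighbouring pairs. MIR29A was next to MIR29B-1, both within a long non-coding RNA gene. MIR29B-2 was next to MIR29C, between CD34 and CD46. MIR29E was next to MIR29D, both within the span of the protein-coding gene LOC518224. Mature miR-29b can therefore come from either of the first pairs, and its deposited reads were divided equally over 2 rows.

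Reads that fit several family members had also been divided. Among the 6 bovine 3p rows none held a whole number of reads in either library. Their sums were whole within 0.02 reads, at 3727 in the collapsed-lung and 11308 in the normal-lung library. The sum over the family was thus free of that division, whereas the level of a single member carries it.

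All miR-29 rows together held 3821 of 2822876 reads in the collapsed-lung library and 11565 of 4550911 in the normal-lung library. That is 1354 reads per 1000000 (RPM) in collapsed lungs, against 2541 RPM in normal lungs. The summed level was 1.88-fold lower in collapsed lungs, with an exact conditional binomial 95% interval of 1.81 to 1.95 that covers counting error only. PCR copies are not independent molecules, and the spread between cows was not measured. In whole lung, fewer cells that make miR-29 and less miR-29 per cell cannot be told apart.

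miR-29a, the most abundant member, had 3326 reads (1178 RPM) in the collapsed-lung library and 10064 reads (2211 RPM) in the normal-lung library. It ranked 93 among the rows of the collapsed-lung library and 73 in the normal-lung library. Its level was 1.88-fold lower in collapsed lungs (95% counting interval 1.80 to 1.95), a log2 ratio of -0.91. miR-29b, with both rows summed, had 228 reads (80.8 RPM) in collapsed and 706 reads (155.03 RPM) in normal lungs. That is 1.92-fold lower in collapsed lungs (1.65 to 2.24). miR-29c had 166 reads (58.8 RPM) in collapsed and 512 reads (112 RPM) in normal lungs, 1.91-fold lower in collapsed lungs (1.60 to 2.29). The intervals of these 3 guide strands overlap, and their log2 ratios lay between -0.94 and -0.91.

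The 5p arms had far fewer reads, and most of them were miR-29d-5p, with 70 of 83 in collapsed lungs and 195 of 241 in normal lungs. The deposited name does not say which precursors its 2 rows stand for. miR-29d-5p, summed over its 2 rows, had 70 reads (24.8 RPM) in collapsed lungs and 195 reads (42.8 RPM) in normal lungs. It stood 1.73-fold lower in collapsed lungs (1.31 to 2.30), and its interval includes the ratios of miR-29a, miR-29b and miR-29c. Under the name miR-29d the 5p arm was the more abundant, since the miR-29d-3p row had 6.63 reads in collapsed and 23.6 in normal lungs. The 4 5p sequences together came to 29.4 RPM in collapsed lungs and 53.0 RPM in normal lungs, 1.80-fold lower in collapsed lungs (1.40 to 2.34).

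**Figure D1:**
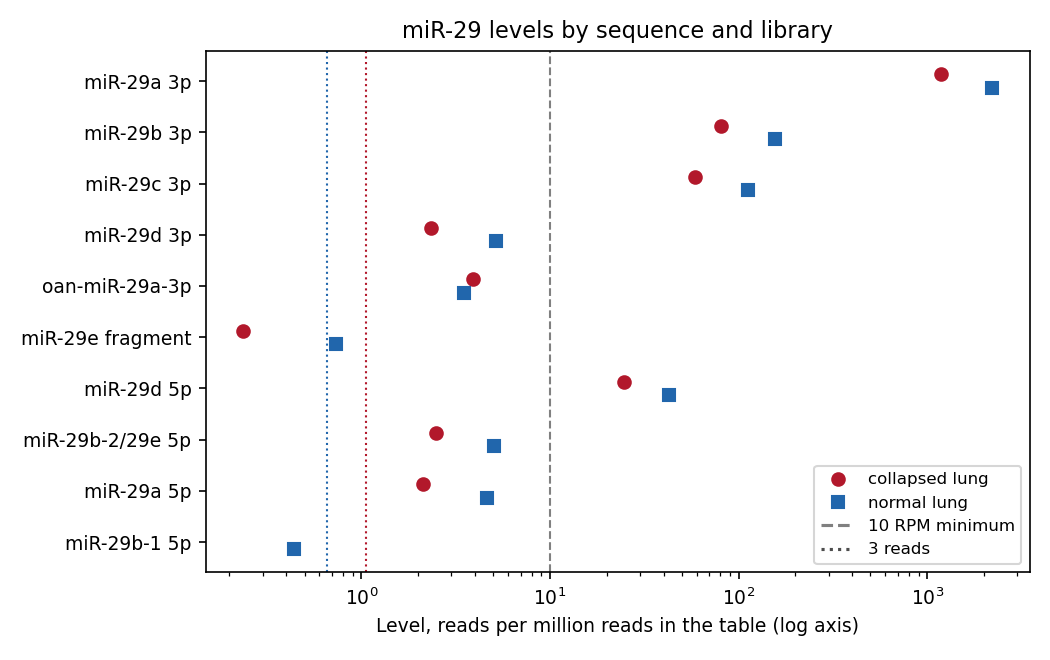
Level of each of the 10 miR-29 sequences in RPM (log axis), with rows of one sequence summed; circles are the collapsed-lung library and squares the normal-lung library. The circle lies left of the square for every sequence drawn in both libraries apart from oan-miR-29a-3p (3.90 against 3.52 RPM), and miR-29b-1 5p has no circle because it had 0 reads in collapsed lungs.

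The remaining sequences were scarce, and 7 of the 13 rows had a mean below 10 RPM over the libraries. miR-29d-3p had 6.63 reads in collapsed and 23.6 in normal lungs, a ratio of 0.453 with an interval of 0.171 to 1.12 that includes 1. The mouse-named miR-29a-5p had 6 reads in collapsed and 21 in normal lungs, a ratio of 0.461 (0.152 to 1.18). The sequence shared by mdo-miR-29b-2-5p and mir-29e-p5 had 7 reads in collapsed and 23 in normal lungs, a ratio of 0.491 (0.178 to 1.18). For each of these 3 a difference was not detectable at this depth.

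The single member above 1 was oan-miR-29a-3p, the A-extended form of the miR-29c sequence, with 11 reads in collapsed and 16 in normal lungs. Its ratio of 1.11 has an interval of 0.465 to 2.54, which includes 1 and also includes the ratio of miR-29c, 0.523. mmu-miR-29b-1-5p had 0 reads in collapsed and 2 in normal lungs, and the miR-29e fragment 0.67 and 3.33 reads in the same order. Both are near or under the level of 3 reads, which is 1.06 RPM in the collapsed-lung and 0.659 RPM in the normal-lung library, and no fold is given for them.

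**Figure D2:**
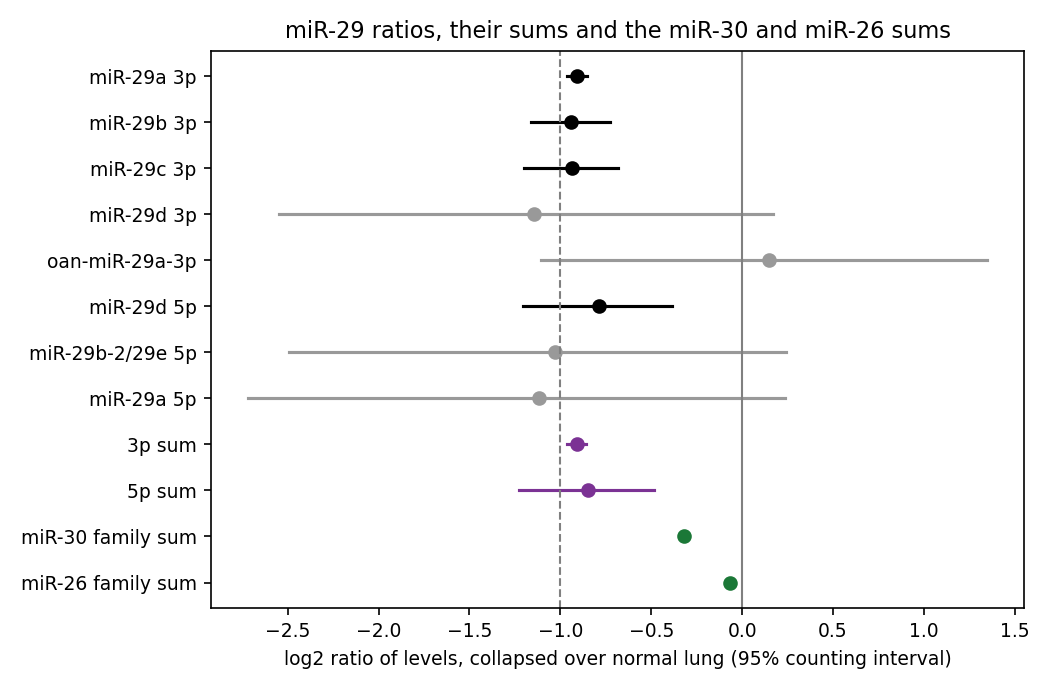
Log2 ratio of levels, collapsed over normal lung, with 95% counting intervals; black marks sequences of at least 10 RPM, grey scarcer ones, purple the sums of the 3p and 5p arms, green the miR-30 and miR-26 sums, and the dashed line a 2-fold lower level. miR-29a, miR-29b, miR-29c and miR-29d-5p lie between -0.94 and -0.79, and the miR-30 and miR-26 sums at -0.32 and -0.07; the miR-29e fragment and miR-29b-1 5p are not drawn.

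The balance between members was close to equal in the libraries, and it does not depend on how the libraries are scaled. It does carry the division of reads over members, which the intervals of shares and factors leave out. miR-29a made up 87.0% of miR-29 reads in collapsed lungs (exact binomial 95% interval 85.9 to 88.1%) and 87.0% in normal lungs (86.4 to 87.6%). miR-29b made up 5.97% in collapsed lungs (5.24 to 6.77%) and 6.10% in normal lungs (5.68 to 6.56%). miR-29c made up 4.34% in collapsed lungs (3.72 to 5.04%) and 4.43% in normal lungs (4.06 to 4.82%). The order miR-29a, miR-29b, miR-29c, miR-29d-5p held in each library, with intervals of neighbours that did not overlap. Read numbers of different miRNAs also carry how well each sequence takes up adapters, so this order is one of reads.

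Set against miR-29a, the ratio of miR-29b differed by a factor of 0.978 (95% counting interval 0.838 to 1.14) and that of miR-29c by 0.981 (0.820 to 1.17). miR-29b set against miR-29c gave 0.997 (0.792 to 1.26). A shift in the balance of the members was not detectable within these intervals, which leave room for differences up to the bounds given. The 5p arms held 2.17% of miR-29 reads in collapsed lungs (1.73 to 2.69%) and 2.08% in normal lungs (1.83 to 2.36%). Over the family, the ratio of 5p set against that of 3p was 1.04 (0.811 to 1.34), a pooled value in which miR-29d-5p supplies most 5p reads and miR-29a most 3p reads. For miR-29a alone there were 554 reads of the 3p arm for each of the 5p arm in collapsed lungs and 479 in normal lungs, on 6 and 21 reads of its 5p arm, and the ratio of 5p set against that of 3p was 0.865 (0.349 to 2.14).

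**Figure D3:**
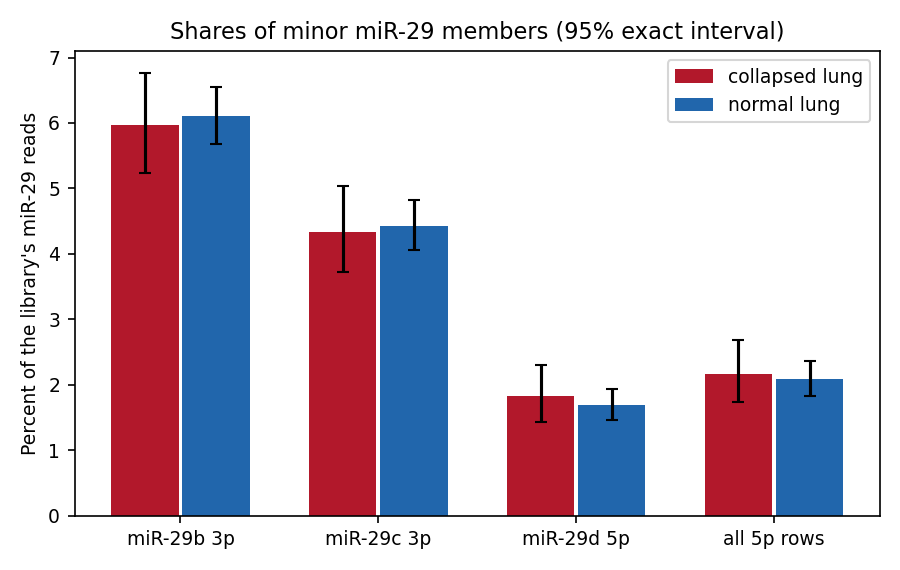
Percent of each library's miR-29 reads held by miR-29b, miR-29c, miR-29d-5p and all 5p rows, as bars with exact binomial 95% intervals, collapsed lung left of normal lung. The intervals of the libraries overlap in each pair, for example 5.97% and 6.10% for miR-29b; miR-29a, at 87.0% in each, is not drawn.

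Among all miRNAs, the miR-29 ratio lay in the lower tail. Of the 2271 rows, 1784 had a mean below 10 RPM, and the others, the measured rows, had a median log2 ratio of 0.09 and quartiles of -0.18 and 0.34. Of the measured rows, 19, or 3.90%, had a log2 ratio at or below that of the miR-29 3p sum, -0.91, and the rows of miR-29b and miR-29c are among them. A row was called when its level differed at least 2-fold and its interval left out 1. By this rule 2.87% of measured rows were called lower and 3.49% higher, and of the 6 measured miR-29 rows, which hold 4 sequences, none was called. With a 1.5-fold threshold 7.19% of measured rows were called lower and 12.7% higher, and all 6 measured miR-29 rows were called lower. Since the family was chosen from this contrast, nothing is read from that count.

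**Figure D4:**
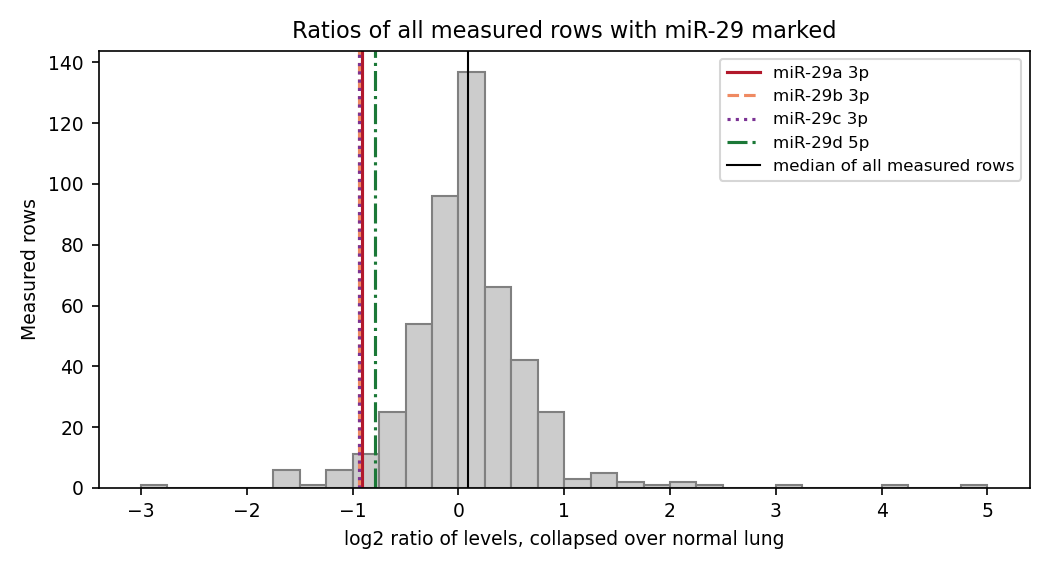
Number of measured rows per 0.25 of the log2 ratio, collapsed over normal lung, with vertical lines for the 4 miR-29 sequences of at least 10 RPM and for the median of all measured rows. The miR-29 lines stand between -0.94 and -0.79, left of the median at 0.09.

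Whether the family passed the 2-fold line rested on the scaling of the libraries. With median-of-ratios factors every log2 ratio in the table moved by -0.16, and the miR-29 sum stood 2.09-fold lower in collapsed lungs. With a trimmed mean of log ratios it stood 2.04-fold lower and with the authors' factors 2.05-fold lower. Under each of these 3 scalings 4 rows were called lower, those of miR-29a, miR-29b and miR-29c, and the rows of miR-29d-5p were not. The authors' deposited table places the same 4 rows in its section of differing miRNAs and the other 9 rows outside it. In the authors' deposited table the log2 fold change of miR-29d-5p is -0.92, and it is 0.02 for oan-miR-29a-3p.

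**Figure D5:**
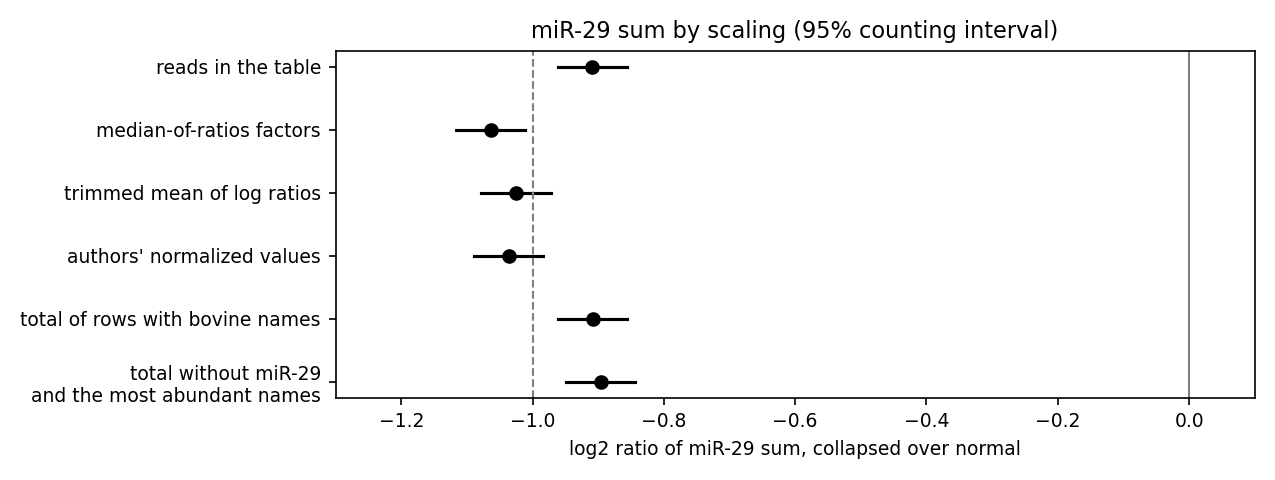
Log2 ratio of the summed miR-29 reads, collapsed over normal lung, under 6 scalings of the libraries, with 95% counting intervals and a dashed line at a 2-fold lower level. The points run from -1.06 with median-of-ratios factors to -0.90 with a total that leaves out miR-29 and the most abundant names, all below 0.

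The miR-26 and miR-30 families, also abundant in lung, were set beside miR-29. The summed miR-30 rows stood at 65571 RPM in collapsed and 81981 RPM in normal lungs, 1.25-fold lower in collapsed lungs (1.24 to 1.26). The summed miR-26 rows stood at 122788 RPM in collapsed and 128673 RPM in normal lungs, 1.05-fold lower in collapsed lungs (1.04 to 1.05). For each 100 miR-30 reads there were 2.06 miR-29 reads in collapsed lungs and 3.10 in normal lungs, a factor of 0.666 (0.642 to 0.691). For each 100 miR-26 reads there were 1.10 miR-29 reads in collapsed and 1.97 in normal lungs, a factor of 0.558 (0.538 to 0.579). These factors do not depend on scaling, and their intervals cover counting error only.

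Other miRNAs reported to act on fibrosis were taken from a list of 35 names. Of 19 names reported to lower matrix or fibrotic signalling, 18 were measured, on 34 rows with a median log2 ratio of -0.12, against 0.09 over all measured rows. None of the 34 rows was called at 2-fold, where 2.87% of all measured rows were called lower and 3.49% higher. At 1.5-fold 2 were called lower and 2 higher, where the shares over all measured rows are 7.19% and 12.7%. The most abundant were miR-26a (log2 ratio -0.06), miR-30a (-0.39), miR-26b (-0.12) and miR-30e (-0.13), each summed over its rows. The rows called lower at 1.5-fold were hsa-miR-26b-3p at -0.70 and mml-miR-486-5p at -0.60, and those called higher were both arms of miR-98, a let-7 relative, at 0.75 for the bovine row and 0.71 for hsa-miR-98-3p.

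Of 16 names reported to raise fibrosis or to respond to TGF-beta, 15 were measured, on 29 rows with a median log2 ratio of 0.26. At 2-fold 2 rows were called higher and none lower, beside 3.49% and 2.87% of all measured rows. At 1.5-fold 8 were called higher and 1 lower, beside 12.7% and 7.19%. The 8 rows were both arms of miR-21, miR-214 and miR-424, with miR-155 and miR-503-5p, so they do not stand for 8 separate miRNAs. The 2 rows called higher at 2-fold were miR-503-5p at 1.27 and miR-21-3p at 1.08, and the row called lower at 1.5-fold was miR-27a-5p at -0.73. Summed over its rows, miR-27a stood at -0.25. By abundance, summed over rows, this list was led by miR-143 (-0.12), miR-199a (0.33), miR-27b (0.05) and miR-21 (0.92). Both arms of miR-21, which is known to be induced in damaged lung, summed to 37327 RPM in collapsed and 19731 RPM in normal lungs. With median-of-ratios factors the medians of the lists were -0.28 and 0.11, and that of all measured rows was -0.07.

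The 5 names of at least 100 RPM, of 182 outside the family, whose log2 ratio lay nearest to that of the miR-29 3p sum were picked as a description over 2 libraries. miR-3431 stood at -0.81, miR-146a at -1.04, miR-224 at -0.77, miR-92b at -1.06 and miR-2284x at -0.72. Their levels lay from 259 RPM for miR-92b to 2077 RPM for miR-224 in collapsed lungs.

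Lung identity was checked with miRNAs of known cell types, each list summed. Smooth muscle and fibroblast miRNAs (5 of 5 with reads) stood at 206187 RPM in collapsed and 207058 RPM in normal lungs, endothelial miR-126 at 48684 and 46329 RPM, and epithelial miRNAs (6 of 6) at 7708 and 8391 RPM in the same order. Those of multiciliated airway cells (5 of 5) stood at 2755 RPM in collapsed and 7969 RPM in normal lungs, 2.89-fold lower in collapsed lungs. Leukocyte miRNAs (4 of 4) stood at 2636 RPM in collapsed and 3133 RPM in normal lungs, and red cell miRNAs (3 of 3) at 3015 and 3149 RPM in the same order. Of other organs, liver miR-122 stood at 17.4 and 34.5 RPM, striated muscle miRNAs (5 of 6, miR-206 without reads) at 87.5 and 112 RPM, and brain miRNAs (1 of 2, miR-124 without reads) at 52.1 and 32.3 RPM, again with collapsed lungs given before normal lungs. The summed multiciliated cell miRNAs and liver miR-122 were also lower in collapsed lungs. So were, by smaller ratios, the sums of the leukocyte, striated muscle, epithelial and red cell lists. The part of these lists in the miR-29 ratio was not tested. Single members could differ from their sum. In the leukocyte list, with a summed log2 ratio of -0.25, miR-155 stood at 0.91. In the epithelial list miR-141, miR-200c and miR-200a stood at -0.44, -0.14 and -0.09, and miR-200b and miR-429 at 0.01 and 0.03. The list also holds miR-375, whose own ratio is not given here, so these values need not span the range of the list. The sum of the smooth muscle and fibroblast list also joins members with ratios of opposite sign. Its smooth muscle miRNAs miR-143 and miR-145 had log2 ratios of -0.12 and -0.53, and its mesenchymal miRNAs miR-199a, miR-199b and miR-214 had 0.33, 0.33 and 0.65.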

How the data were processed

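Total RNA was extracted with Trizol and made into TruSeq small RNA libraries, per the labels' protocols. The build was bosTau8, per the submitters' processing notes. The aligner, the trimming of adapters and the release of the miRNA database were not given in the sources used here. The authors deposited, per the file headers, raw read counts per row (estimated counts, since reads with several names were divided), normalized reads (a signal, here found equal to raw reads over 1 factor per library, 0.823 for collapsed and 1.21 for normal lungs), a fold ratio with its log2 value, and p-values of tests between 2 libraries, which are not used. Read counts were rounded for intervals only.

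The 2 libraries, of 2822876 and 4550911 reads in the table for collapsed and normal lungs, were scaled to reads per 1000000. Calls needed a mean of 10 RPM, a ratio of at least 2 or at most 0.5, and an interval without 1. Member ratios carry exact conditional binomial intervals, shares exact Clopper-Pearson intervals, and factors between ratios log-normal counting intervals. The intervals and calls were tested on simulated data that held counting error only. That simulation does not cover spread between cows, PCR copies or divided reads. No count model was used, since a single library per group leaves nothing to estimate the spread from. The text names each member, the 4 most abundant names of each list and the 5 nearest names; the rows called in the lists were named after their values were seen. Members and lists were chosen with earlier results of these data known. The 2 emptied lines of the table were not analysed here. Python 3.11.15 with scipy 1.17.1 was used.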

Additional observations from a re-analysis of the deposited data

How the results depend on the processing

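No paired analysis was possible because each group is a single pooled library. The count of miR-29 rows called 2-fold lower was 0 with totals and 4 with a trimmed mean, the authors' normalized values or median-of-ratios factors. It was 6 at a 1.5-fold threshold and 0 under every other alternative run. The log2 ratio of the family sum, -0.91, was -1.06 with median-of-ratios factors, -1.04 with the authors' values and -1.03 with a trimmed mean. It stayed between -0.91 and -0.90 with the total of bovine rows, the total without the most abundant names, 5 reads added, bovine rows only, each sequence counted once, and rows with the shared seed only. The last, and summing rows of one sequence before the call, were added after the data were seen. Counting each sequence once drops reads that the table had divided, by construction, and moved the miR-29a share in collapsed lungs to 90.7% from 87.0% and the 5p share to 1.21% from 2.17%. Depth limits the rows below 10 RPM, where each interval given includes 1.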
